A study of Mus musculus with 12 samples.

Results

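The insulin-like growth factor (IGF) ligands, receptors and binding proteins were followed as 10 genes of the 24091 in the expression table. They were chosen by gene symbol, each symbol matching 1 row. They comprised the ligands Igf1 and Igf2, the receptors Igf1r, Igf2r and Insr, and the binding proteins Igfbp2, Igfbp3, Igfbp4, Igfbp5 and Igfbpl1. RNA sequencing had been done on 12 mouse samples in 4 groups of 3, and expression was given as TPM, the share of a library's transcripts that each gene takes once transcript length is allowed for, on a common total. The tumors were medulloblastomas (MBs) of Brca2-mut;Trp53-mut mice GB344, GB359 and GB370, and the adjacent samples were cerebellum from those same mice with the same genotype. The controls were cerebella of Brca2-mut;Trp53-WT mice (GB361, GB508 and GB512) and of Brca2-WT;Trp53-mut mice (GB517, GB519 and GB520), adult animals that the study describes as matched in age to the tumors and as genotypes that do not form MB. No age is in the labels. No group was wild type at both genes. In this model Cre under the human GFAP promoter removes floxed Brca2 exons in the developing central nervous system, so cells outside that lineage keep Brca2, whereas Trp53 is deleted in every cell of the body. All 10 genes had a TPM above 0 in all 12 samples.

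IGF1 and IGF2 are secreted peptides that bind the receptor tyrosine kinase IGF1R, which signals through insulin receptor substrates to PI3K, AKT and mTOR and through SHC and GRB2 to RAS. The insulin receptor INSR also binds IGF2, while IGF2R lacks kinase activity and carries IGF2 to lysosomes. The IGF binding proteins hold the ligands outside cells and lengthen or limit their action, and proteases release the ligands again. In the cerebellum, IGF signaling is known for its support of granule cell progenitor (GCP) proliferation, and Igf2 is known as a gene needed for hedgehog-driven MB formation in mice. Igf2 and Igf2r are imprinted in most tissues, where RNA comes mainly from the paternal allele of Igf2 and the maternal allele of Igf2r.

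Some libraries stood apart before any IGF gene was considered. Markers of GCPs (8 genes, among them Atoh1, Barhl1 and Gli1) summed to 1175 TPM in tumor GB344 and to 2548 and 2431 TPM in the other tumors, but also to 732.2 and 622.9 TPM in adjacent GB344 and GB359, against 98.0 TPM in adjacent GB370 and 42.1 to 64.7 TPM in the 6 controls. All 3 adjacent samples were above the range of the controls, GB370 by the least, and its Atoh1 of 4.997 TPM was also above the control maximum of 0.212 TPM. The 8 choroid plexus markers, led by Ttr, summed to 3980 to 5210 TPM in all 3 Brca2-WT;Trp53-mut cerebella, to 882.5 TPM in GB361 and to 20.7 to 69.0 TPM in the other 8 libraries. The 6 meningeal fibroblast markers summed to 187.1 TPM in tumor GB344, while GB359 and GB370 had 35.4 and 97.9 TPM in their tumors and controls had 54.0 to 62.9 TPM. Among controls, GB512 had the highest Mki67 (5.63 TPM against at most 0.343 TPM in the others). Trp53 itself read 33.1 to 37.2 TPM in Brca2-mut;Trp53-WT and 47.0 to 49.4 TPM in Brca2-WT;Trp53-mut cerebellum, so a gene-level TPM of a partly deleted gene did not check the genotype labels.

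A gene was called when limma on log2(TPM + 1) gave an adjusted p under 0.01 over all genes tested and a log2 change of 1 or more in either direction. Fold changes on this scale understate the change of genes near 0 TPM. The comparisons reuse the same tumors or the same controls, so their results are not independent of each other. Igfbpl1 was under 1 TPM in all 6 controls and passed the filter on low values only through the group where it was high, so its differences from controls are given as a description, without a p-value, and it is left out of the counts of members called. In tumors against both control genotypes (n = 3 and 6), 2 of the 9 other members were called higher and 1 was called lower, beside 14.4% and 21.5% of the 16241 genes tested. Both that were higher were binding proteins (Igfbp4 and Igfbp3), and the 1 that was lower was the receptor Igf2r. The same members were called against Brca2-WT;Trp53-mut cerebellum alone, where the background was 13.5% higher and 22.3% lower. Over the 9 members, the middle value of the log2 difference from both genotypes was -0.18, beside -0.11 over all genes tested.

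**Figure D1:**
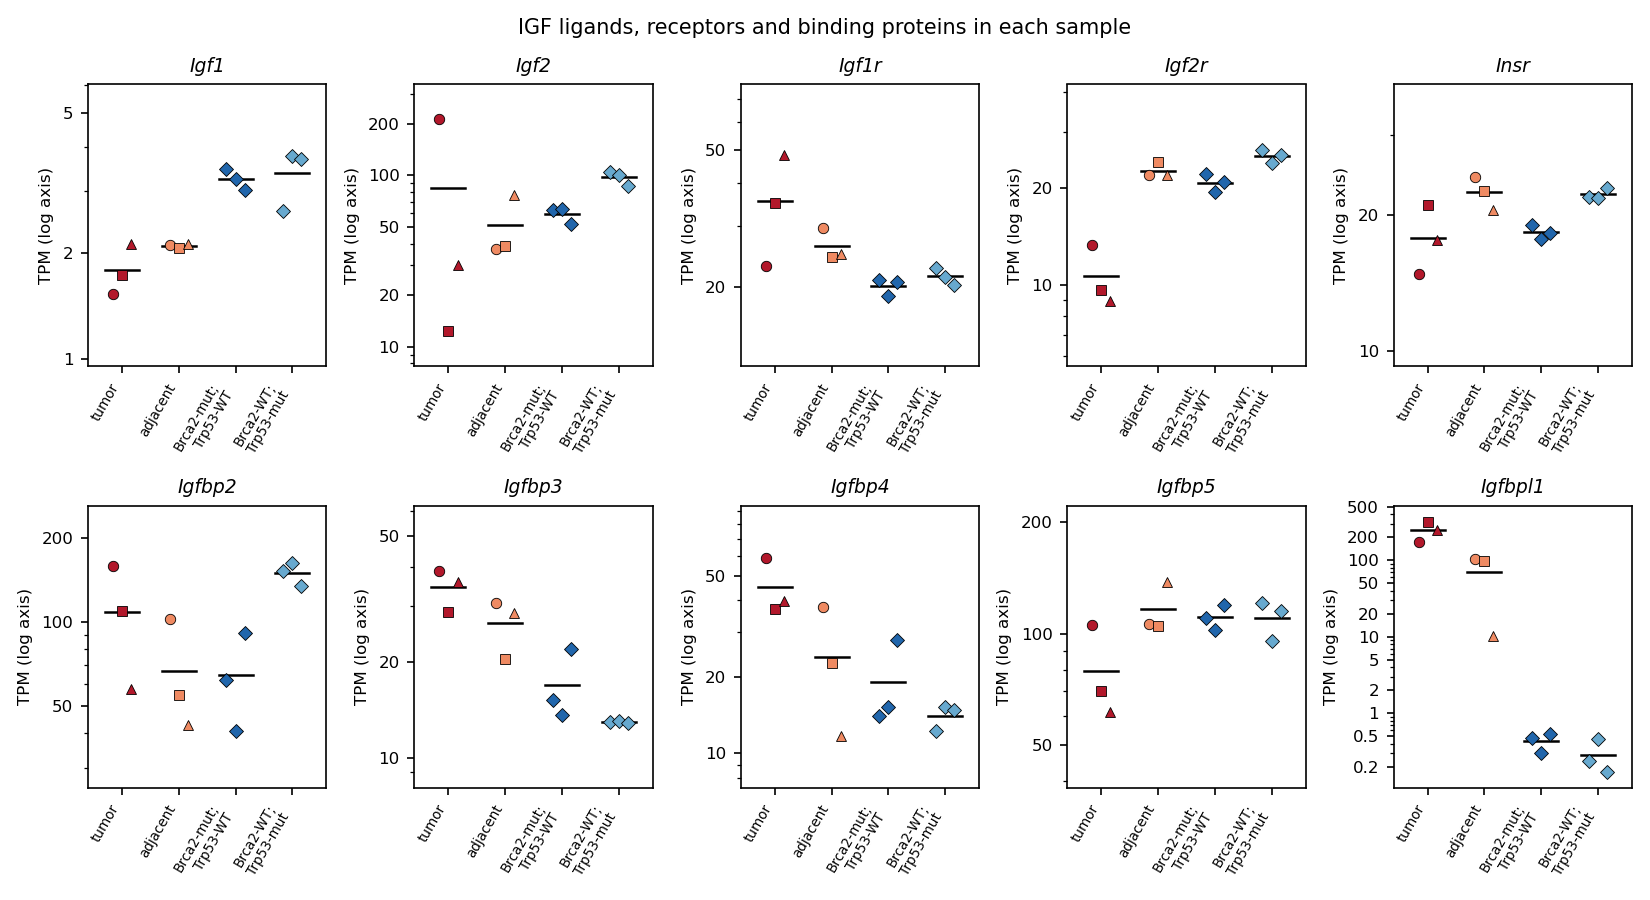
TPM on a log axis for each of the 10 members, with 1 point per sample, a black line at the group mean, and circles, squares and triangles for mice GB344, GB359 and GB370 and diamonds for control mice. Igf2r was lower in the 3 tumors (8.93 to 13.3 TPM) than in any other sample, and Igfbpl1 was under 1 TPM in the 6 controls and at 175 to 322 TPM in tumors.

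Igf2 was the more abundant ligand transcript, making up 87.7% to 99.3% of the summed TPM of both ligands in every sample. The tumors held both the lowest and the highest Igf2 of the series, at 12.3 TPM in GB359, 29.8 TPM in GB370 and 212 TPM in GB344. Adjacent cerebellum had 37.4, 38.5 and 77.2 TPM, Brca2-mut;Trp53-WT cerebellum had 63.2, 63.6 and 51.9 TPM, and Brca2-WT;Trp53-mut cerebellum had 105, 101 and 86.8 TPM. The tumors thus lay on both sides of the other groups, and the log2 difference from both control genotypes was -0.79 ± 0.68 (SE; 95% confidence interval -2.31 to 0.73, adjusted p = 0.316). Leaving out tumor GB344 gave -1.92 (adjusted p = 0.000703), which passed both thresholds, and leaving out tumor GB359 gave 0.08. Within mice, tumor Igf2 was 5.67 times the adjacent level in GB344 and 0.320 and 0.386 times in GB359 and GB370.

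Tumor GB344 also stood out for genes that share features with Igf2. H19, a noncoding RNA imprinted with Igf2, lies 72622 bases from it on chromosome 7 (H19 at 142575530 to 142578146 and Igf2 at 142650768 to 142666816 in GRCm38.p6). H19 was at 73.5 TPM in tumor GB344, at 2.27 and 2.87 TPM in the other tumors, at 2.11 to 4.51 TPM in adjacent cerebellum and at 1.04 to 1.80 TPM in controls. Grb10, an imprinted adaptor that binds IGF1R and INSR and restrains their signaling, was at 80.9 TPM in tumor GB344 and at 3.47 and 2.17 TPM in the other tumors, while the 9 remaining samples spanned 16.1 to 24.1 TPM. Collagen transcripts of fibroblasts were high in that tumor too, with Col3a1 at 60.5 TPM against 7.37 and 26.5 TPM in the other tumors and 1.99 to 2.75 TPM in controls. Across all 16498 genes with at least 1 TPM in 3 or more samples, 15.1% were highest of all samples in tumor GB344. Of the 6 meningeal fibroblast markers, 4 were highest there. The others were not, with Dcn at 31.2 TPM (33.6 TPM in tumor GB370) and Slc22a6 at 0.047 TPM, the lowest of all samples. The part of other cell types in the Igf2 level of this tumor was not tested.

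Igf1, which acts in the brain mainly as a local growth factor, was the least abundant member in tumors and adjacent cerebellum. It was at 1.52, 1.72 and 2.11 TPM in tumors, 2.11, 2.06 and 2.11 TPM in adjacent cerebellum, 3.47, 3.24 and 3.02 TPM in Brca2-mut;Trp53-WT and 2.62, 3.75 and 3.70 TPM in Brca2-WT;Trp53-mut cerebellum. Every tumor and adjacent sample was below every control. The tumor difference of -0.63 ± 0.14 (SE, log2) from both genotypes had an adjusted p of 0.00178 without reaching the fold threshold, and adjacent cerebellum differed from controls by -0.47 ± 0.13 (adjusted p = 0.0359). Tumor and adjacent samples overlapped (log2 difference -0.16, 95% confidence interval -0.54 to 0.23).

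**Figure D2:**
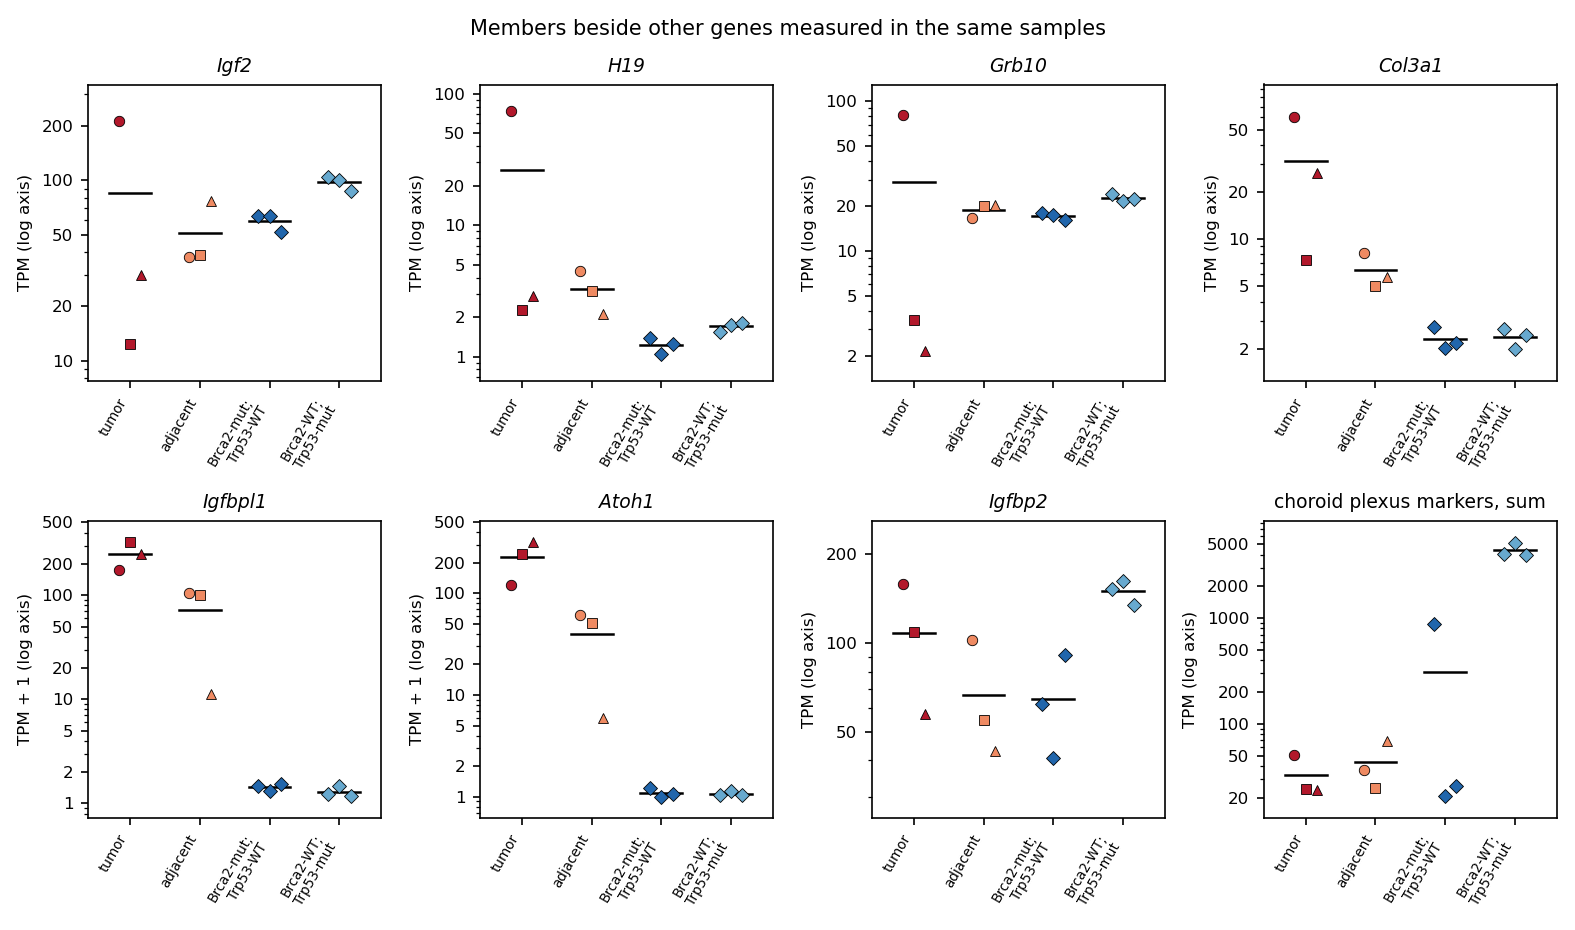
Igf2, Igfbpl1 and Igfbp2 beside H19, Grb10, Col3a1, Atoh1 and the summed choroid plexus markers, as TPM (TPM + 1 for Igfbpl1 and Atoh1) on log axes, with 1 point per sample, group means as lines and the same mouse symbols throughout. Tumor GB344 (circle) was the highest of all samples for Igf2, H19, Grb10 and Col3a1. The order of Igfbpl1 in adjacent cerebellum followed that of Atoh1. In tumors it did not, with Igfbpl1 highest in GB359 and Atoh1 in GB370.

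Among receptors, Igf2r was lower in tumors than in every other group. Its level was 13.3, 9.62 and 8.93 TPM in tumors, 22.0, 24.1 and 22.0 TPM in adjacent cerebellum, 22.1, 19.4 and 21.0 TPM in Brca2-mut;Trp53-WT and 26.4, 23.9 and 25.4 TPM in Brca2-WT;Trp53-mut cerebellum. No tumor overlapped any other sample. The log2 fold change was -1.06 ± 0.14 (SE, adjusted p = 6.37e-05) against both control genotypes, -1.19 ± 0.17 (adjusted p = 0.000753) against Brca2-WT;Trp53-mut, and -1.05 ± 0.19 (adjusted p = 0.00418) against adjacent cerebellum. These values sat near the fold threshold of 1. The call against both genotypes was lost without tumor GB370 (-0.95), against Brca2-mut;Trp53-WT alone (-0.93), and with median-of-ratios scaling (-0.95) or quantile normalization (-0.89), the adjusted p staying at or below 0.00314 in each. In such bulk samples, fewer cells of a type and less RNA per cell cannot be told apart. The 6 mature granule neuron markers summed to 118 to 392 TPM in tumors and 2550 to 3310 TPM in controls, and the 6 Purkinje cell markers to 227 to 368 TPM and 5690 to 8960 TPM, and the part of cell makeup in the Igf2r level was not tested.

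Igf1r, the signaling receptor of both ligands, was at 23.0, 35.1 and 48.3 TPM in tumors, 29.6, 24.4 and 25.0 TPM in adjacent cerebellum, 21.0, 18.9 and 20.7 TPM in Brca2-mut;Trp53-WT and 22.7, 21.4 and 20.3 TPM in Brca2-WT;Trp53-mut cerebellum. Tumor GB344 was just above the highest control, and GB370 was the highest of the series. The difference from both genotypes was 0.68 ± 0.18 (SE, log2; adjusted p = 0.00669), below the fold threshold, and adjacent cerebellum was also above all 6 controls by 0.32 ± 0.09 (adjusted p = 0.0371). The tumor difference fell as low as 0.43 with 1 sample left out, and its adjusted p by limma reached 0.0596 over the alternatives. Within mice, tumor Igf1r was 0.778, 1.44 and 1.93 times the adjacent level in GB344, GB359 and GB370. Insr was flatter, at 14.8 to 21.0 TPM in tumors, 20.5 to 24.2 TPM in adjacent cerebellum, 17.7 to 19.04 TPM in Brca2-mut;Trp53-WT and 21.8 to 22.9 TPM in Brca2-WT;Trp53-mut cerebellum. Its tumor difference from both genotypes was -0.18 ± 0.13 (adjusted p = 0.225). As a description of the balance among receptors, the ratio of Igf1r to Insr TPM was 1.55, 1.67 and 2.75 in tumors and 0.886 to 1.22 in the other 9 samples, and Igf1r to Igf2r was 1.73, 3.65 and 5.41 in tumors and 0.801 to 1.34 elsewhere.

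**Figure D3:**
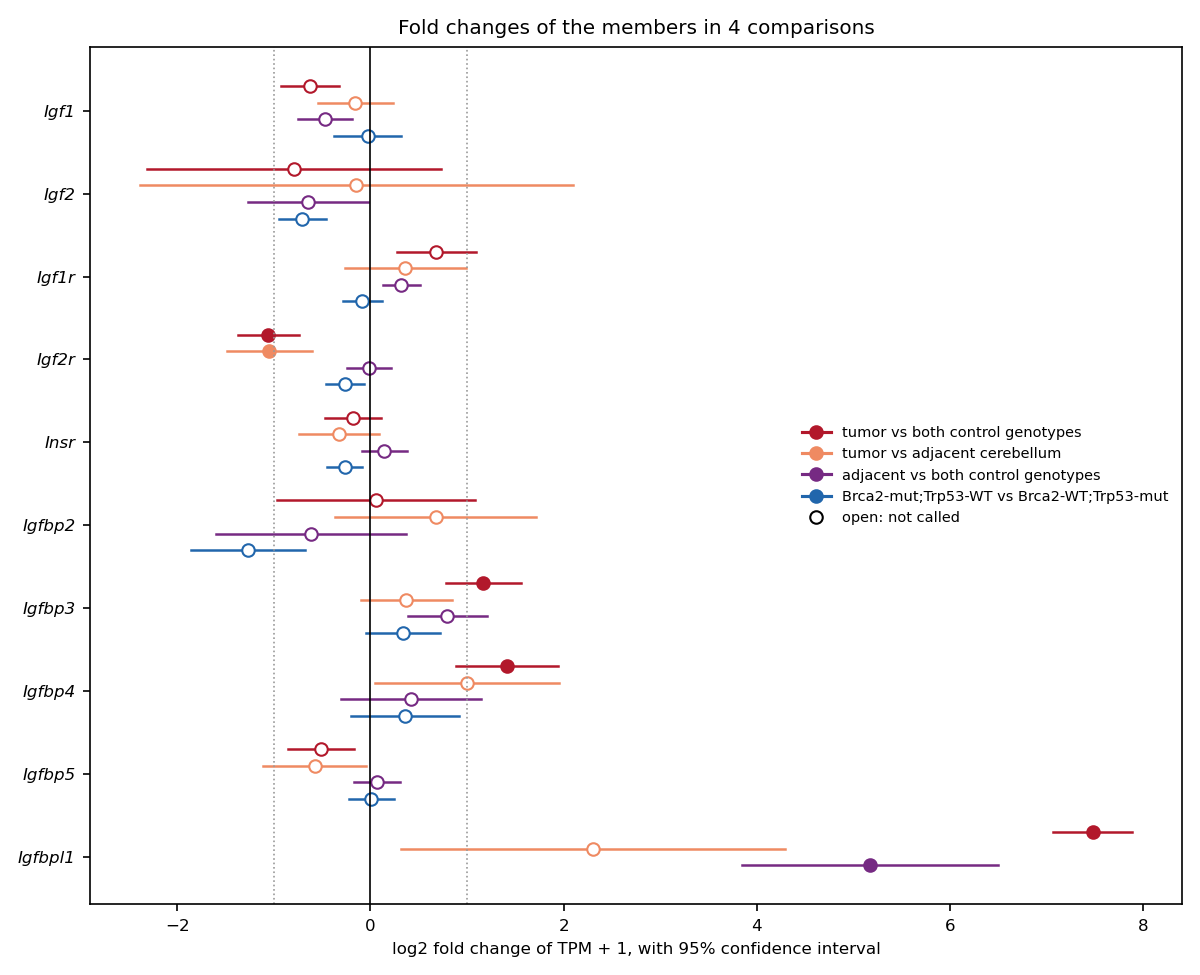
Log2 fold change of TPM + 1 with its 95% confidence interval for each member in 4 comparisons, where filled points were called and dotted lines mark a log2 fold change of 1 in either direction. Igfbp4 and Igfbp3 were called higher and Igf2r lower in tumors against both control genotypes, and Igf2r was the member called against adjacent cerebellum. The filled points of Igfbpl1 come from a gene that passed the filter through 1 group alone, and it was below the filter in the comparison of control genotypes and has no point there.

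The binding proteins moved apart from each other. Igfbp3, the main carrier of IGFs in blood, was at 38.8, 28.7 and 35.9 TPM in tumors, 30.7, 20.5 and 28.6 TPM in adjacent cerebellum, 15.2, 13.6 and 22.0 TPM in Brca2-mut;Trp53-WT and 12.9, 13.0 and 12.9 TPM in Brca2-WT;Trp53-mut cerebellum. All tumors were above all controls, and the log2 fold change was 1.17 ± 0.17 (SE, adjusted p = 0.00014). Igfbp4, a binding protein that PAPP-A cleaves to release its ligand, was at 58.8, 36.9 and 39.9 TPM in tumors, 37.5, 22.7 and 11.7 TPM in adjacent cerebellum, 14.0, 15.3 and 27.9 TPM in Brca2-mut;Trp53-WT and 12.2, 15.2 and 14.8 TPM in Brca2-WT;Trp53-mut cerebellum. Tumors were again above all controls, by 1.42 ± 0.24 (adjusted p = 0.000323). Control GB512, the library with the most Mki67, had the highest control level of both genes, and both calls held without it. Against adjacent cerebellum, the tumor difference was 0.37 ± 0.20 for Igfbp3 (adjusted p = 0.162) and 0.999 ± 0.402 for Igfbp4 (adjusted p = 0.0763), though in each of the 3 mice the tumor was above its own adjacent sample, by 1.25 to 1.40 times for Igfbp3 and 1.57 to 3.41 times for Igfbp4.

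The sequence around an annotated RefSeq start (250 bases before to 50 after, GRCm38.p6) is shown for the 3 called members with such a start. They are shown since they moved in opposite directions. Capitals mark GC boxes (GGGCGG on either strand). Igf2r is at chr17:12769657-12769956 on the minus strand, Igfbp3 at chr11:7213874-7214173 on the minus strand and Igfbp4 at chr11:99040994-99041293 on the plus strand. The Igf2r window covers the outer end of its gene (12769706). Those of Igfbp3 and Igfbp4 lie inside their genes (7206086 to 7215498 and 99040005 to 99052655), and any start farther out was not scanned.
Igf2r: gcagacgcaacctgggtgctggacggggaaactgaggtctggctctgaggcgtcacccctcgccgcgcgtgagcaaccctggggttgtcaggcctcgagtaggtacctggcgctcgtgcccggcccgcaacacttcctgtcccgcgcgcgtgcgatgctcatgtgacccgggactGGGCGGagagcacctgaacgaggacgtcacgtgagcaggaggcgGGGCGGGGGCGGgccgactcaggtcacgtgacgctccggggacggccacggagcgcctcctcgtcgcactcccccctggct
Igfbp3: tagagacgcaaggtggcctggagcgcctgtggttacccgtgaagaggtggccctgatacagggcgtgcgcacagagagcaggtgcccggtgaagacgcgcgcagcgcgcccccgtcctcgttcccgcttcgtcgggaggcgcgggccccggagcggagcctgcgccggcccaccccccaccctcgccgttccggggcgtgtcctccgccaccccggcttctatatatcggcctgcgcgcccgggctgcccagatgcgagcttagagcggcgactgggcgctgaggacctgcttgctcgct
Igfbp4: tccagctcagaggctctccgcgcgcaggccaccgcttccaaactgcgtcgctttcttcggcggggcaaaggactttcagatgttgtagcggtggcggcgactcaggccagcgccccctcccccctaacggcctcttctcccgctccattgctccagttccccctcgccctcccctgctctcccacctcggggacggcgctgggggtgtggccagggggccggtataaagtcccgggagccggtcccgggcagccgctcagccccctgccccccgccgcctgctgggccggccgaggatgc
Igf2r held 3 GC boxes, and Igfbp3 and Igfbp4 held none, although G and C made up 70.7%, 71.7% and 71.3% of the bases. Of the 12 starts listed for 8 members (Igf2 has several), 5 held a GC box, against 35.7% of 32851 windows of that length. The GLI motif GACCACCCA on either strand was in 0 of the 12 (0.253% of all windows), and the E-box CAGCTG was in 1, that of Igf1 (16.3%). A p53 half-site was in 1, a start of Igf2 (8.36%). These are matches of letters and not evidence of binding.

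Igfbp2, the binding protein typical of fetal brain and choroid plexus, was at 159, 109 and 57.4 TPM in tumors, 102, 54.9 and 42.8 TPM in adjacent cerebellum, 62.1, 40.8 and 91.2 TPM in Brca2-mut;Trp53-WT and 152, 162 and 135 TPM in Brca2-WT;Trp53-mut cerebellum. Tumors lay within the range of the controls (log2 difference 0.06 ± 0.46, 95% confidence interval -0.97 to 1.08), and the sign turned with the control genotype, at 0.69 against Brca2-mut;Trp53-WT and -0.57 against Brca2-WT;Trp53-mut. Within mice, the tumor was above the adjacent sample in 3 of 3 pairs, at 1.55, 1.99 and 1.34 times. The log2 difference was 0.67 with an adjusted p of 0.238, or 0.0191 with the mouse as a block, short of the threshold in either fit.

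Igfbp5, a binding protein that adheres to extracellular matrix, was at 106, 70.2 and 61.5 TPM in tumors, 106, 105 and 138 TPM in adjacent cerebellum, 110, 102 and 120 TPM in Brca2-mut;Trp53-WT and 121, 95.7 and 115 TPM in Brca2-WT;Trp53-mut cerebellum. Tumors GB359 and GB370 were below every other sample, and GB344 was within the range of the others. The difference from both genotypes was -0.51 ± 0.15 (SE, log2; adjusted p = 0.0119), short of both thresholds.

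Igfbpl1, an IGF binding protein-like gene known from immature neurons, had the widest range of the family. It was at 175, 322 and 247 TPM in tumors, 103, 99.2 and 10.2 TPM in adjacent cerebellum, 0.472, 0.304 and 0.537 TPM in Brca2-mut;Trp53-WT and 0.238, 0.456 and 0.171 TPM in Brca2-WT;Trp53-mut cerebellum. The groups of tumor, adjacent and control samples did not overlap. The log2 difference from both control genotypes was 7.48 ± 0.18 (SE) in tumors and 5.17 ± 0.59 in adjacent cerebellum. Because controls were near 0 TPM, its size depended on the pseudocount, and with 0.1 or 0.01 in place of 1 it was 9.09 and 9.44 in tumors and 6.74 and 7.09 in adjacent cerebellum. Between tumor and adjacent samples it was 2.30 ± 0.84 (adjusted p = 0.0562, or 0.0456 with the mouse as a block), which was not called. The tumor was 1.70 and 3.24 times its adjacent sample in GB344 and GB359 and 24.3 times in GB370.

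Igfbpl1 was high in the groups where the GCP markers were high. Over the 12 samples, the 3 genes most like it among 16497 others by Pearson's r of log2(TPM + 1) were Nhlh1 (0.997), Atoh1 (0.995) and Insm1 (0.994), all transcription factors of early neurons or their progenitors. The points share tissue of the same mice and fall into groups. Igfbpl1 was under 1 TPM in all 6 controls, so the split of tumors from controls largely sets these r values. They are a description. Adjacent GB344, GB359 and GB370 had Atoh1 at 59.4, 50.5 and 4.997 TPM, in the order of their Igfbpl1, and the ratio of Igfbpl1 to Atoh1 was 1.73, 1.97 and 2.04 there and 1.47, 1.32 and 0.776 in the tumors. In tumors the order differed, with Atoh1 at 119, 244 and 319 TPM and Igfbpl1 at 175, 322 and 247 TPM (GB344, GB359 and GB370). The part of tumor cells or progenitors in the adjacent samples was not tested.

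Set out as a pool, the 5 binding protein transcripts summed to 442.3 to 566.7 TPM in tumors, 231.4 to 380.0 TPM in adjacent cerebellum, 172.5 to 261.4 TPM in Brca2-mut;Trp53-WT and 277.3 to 298.3 TPM in Brca2-WT;Trp53-mut cerebellum. Igfbpl1 made up 32.6%, 56.7% and 56.0% of the pool in tumors and at most 0.233% in controls. Igfbp5 made up 12.4% to 19.7% in tumors, and 33.4% to 59.6% in controls and adjacent GB359 and GB370 (28.0% in adjacent GB344). Igfbp2 was the largest share in Brca2-WT;Trp53-mut (48.6% to 56.6%), and Igfbp5 was the largest in Brca2-mut;Trp53-WT (45.8% to 59.4%).

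**Figure D4:**
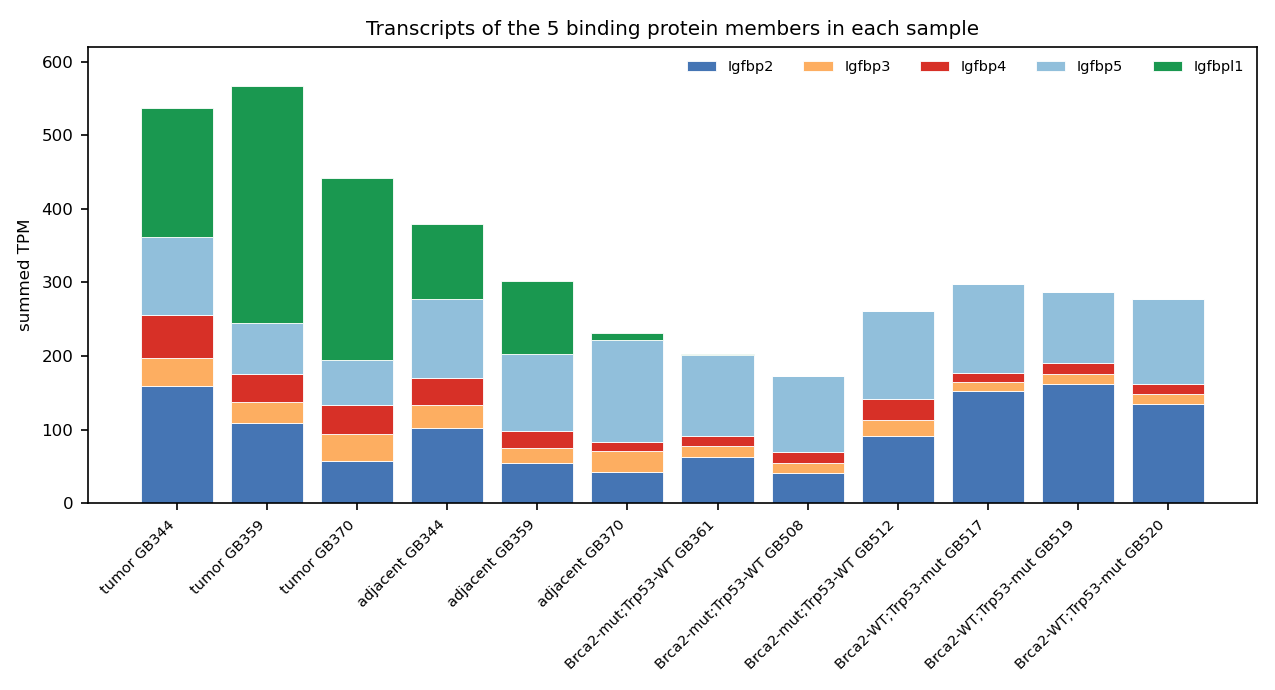
Stacked bars of TPM for the 5 binding proteins in each of the 12 samples, with the y axis starting at 0. Igfbpl1 added 175 to 322 TPM in tumors and 10.2 to 103 TPM in adjacent cerebellum, and was under 1 TPM in every control.

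By mean level, the order in Brca2-mut;Trp53-WT cerebellum was Igfbp5 (110.8 ± 8.7 TPM, SD), Igfbp2 (64.7 ± 25.3), Igf2 (59.5 ± 6.6), Igf2r (20.8 ± 1.3), Igf1r (20.2 ± 1.1), Igfbp4 (19.1 ± 7.7), Insr (18.3 ± 0.67), Igfbp3 (17.0 ± 4.5), Igf1 (3.24 ± 0.22) and Igfbpl1 (0.438 ± 0.120). Neighbors overlapped in this order except Igfbp5 with Igfbp2, Igf2 with Igf2r, Igfbp3 with Igf1, and Igf1 with Igfbpl1. In Brca2-WT;Trp53-mut cerebellum Igfbp2 came first (149.8 ± 14.0), above Igfbp5 (110.4 ± 13.1) without overlap, followed by Igf2 (97.5 ± 9.4), Igf2r (25.2 ± 1.2), Insr (22.2 ± 0.61), Igf1r (21.5 ± 1.2), Igfbp4 (14.0 ± 1.6), Igfbp3 (12.95 ± 0.082), Igf1 (3.36 ± 0.64) and Igfbpl1 (0.288 ± 0.149). In tumors the order was Igfbpl1 (247.9 ± 73.5), Igfbp2 (108.4 ± 50.5), Igf2 (84.8 ± 110.7), Igfbp5 (79.1 ± 23.4), Igfbp4 (45.2 ± 11.9), Igf1r (35.5 ± 12.6), Igfbp3 (34.5 ± 5.2), Insr (17.8 ± 3.1), Igf2r (10.6 ± 2.4) and Igf1 (1.79 ± 0.30). There neighbors in the order overlapped among Igfbp2, Igf2 and Igfbp5, and among Igfbp4, Igf1r and Igfbp3. Igf2 also reached beyond its neighbors, at 12.3 to 212 TPM over the tumors. In tumor GB344 it was above Igfbpl1 (175 TPM). By mean level, Igfbpl1 was thus first among the members in tumors and last in both control genotypes.

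Against adjacent cerebellum, 0 of 10 members were called higher in tumors and 1, Igf2r, was called lower, beside 4.76% and 18.0% of the 15845 genes tested. The 755 genes called higher became 458, 275 and 189 without tumor GB344, GB359 or GB370 and 210 without adjacent GB359. Unadjusted p was under 0.05 for 2 members with higher values in tumors, Igfbpl1 and Igfbp4, and for 2 with lower values, Igf2r and Igfbp5, beside 21.6% and 35.4% of all genes tested. The Igf2r call held with the mouse as a block (adjusted p = 0.00929) and was lost without any 1 of the libraries except tumor GB344, at log2 fold changes of -1.07 to -0.94, and under the other scalings (-0.87 and -0.75). In adjacent cerebellum against both control genotypes, 0 of the 9 members other than Igfbpl1 were called in either direction by limma, beside 0.224% higher and 0.0124% lower of 16091 genes. That background rested on single libraries, as the 36 genes called higher became 564 without adjacent GB370 and 0 to 11 when any other library was left out. At an unadjusted p under 0.05, 2 of these members had higher values (Igf1r and Igfbp3) and 2 had lower (Igf1 and Igf2), beside 22.1% and 12.4% of all genes. The Igfbpl1 difference was 6.23 without adjacent GB370 and 4.63 to 5.21 when any other library was left out. Igfbp3 was 0.80 ± 0.18 higher in adjacent cerebellum (adjusted p = 0.0235), at 20.5 to 30.7 TPM against 12.9 to 22.0 TPM, and was not called.

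The control genotypes differed most in Igfbp2 and Igf2, and 0 of the 9 members tested were called in either direction by limma, beside 0.0128% higher and 0.0449% lower of 15575 genes. At an unadjusted p under 0.05, 4 members had lower values in Brca2-mut;Trp53-WT (Igf2, Igfbp2, Igf2r and Insr) and 0 had higher, beside 15.3% and 4.78% of all genes tested. Igf2 was at 51.9 to 63.6 TPM in Brca2-mut;Trp53-WT and 86.8 to 105 TPM in Brca2-WT;Trp53-mut cerebellum, a log2 difference of -0.70 ± 0.11 (SE, adjusted p = 0.0472). Igfbp2 was at 40.8 to 91.2 TPM and 135 to 162 TPM, a difference of -1.27 ± 0.25 (adjusted p = 0.0794). Neither gene overlapped between genotypes, and neither did Igf2r, Insr or Igfbp3. The share of all genes without overlap was not computed, so this is a description. The choroid plexus markers split the same samples, and that tissue is known to express Igf2 and Igfbp2. Genotype and the amount of choroid plexus therefore cannot be told apart in these 6 libraries. Within Brca2-mut;Trp53-WT, the choroid plexus markers summed to 882.5 TPM in GB361, 20.7 TPM in GB508 and 25.6 TPM in GB512. Igf2 was at 63.2, 63.6 and 51.9 TPM and Igfbp2 at 62.1, 40.8 and 91.2 TPM in the same order. The part of choroid plexus in these levels was not tested.

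The genes most like the other members in pattern were taken by the same measure over the 12 samples. For Igf1 they were 5730508B09Rik (r = 0.973), Oxct1 (0.948) and Mpp5 (0.946), and for Igf2 they were Slit2 (0.927), Yap1 (0.911) and Osbpl5 (0.904). For Igfbp2 they were Snora34 (0.912), Adam28 (0.890) and Rita1 (0.887).

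Beyond the 10 members, 54 other genes of the pathway were listed, and 47 passed the filter in tumors against both control genotypes. Of these, 9 were called higher (19.1%) and 10 lower (21.3%), beside the 14.4% and 21.5% of all genes. Among further ligands, receptors and binding proteins, Igfbp7, a secreted protein of vessels, rose by 1.29 on the log2 scale (127 ± 52 TPM in tumors and 48.1 ± 5.3 TPM in controls, SD), and Igfbp6, which prefers IGF2, fell by 2.94 (3.69 ± 2.2 and 32.9 ± 5.7 TPM). Insrr had an adjusted p of 0.00414 and a log2 fold change of -0.60, and Ins2 was listed at 0 in 8 of the 12 samples, tumors and adjacent cerebellum among them, and was above 1 TPM only in Brca2-WT;Trp53-mut cerebellum (3.27, 1.33 and 1.196 TPM). Those 3 libraries also had the highest choroid plexus marker sums, so genotype and choroid plexus cannot be told apart for these low Ins2 values. Of the proteolysis genes, Htra1, a secreted protease that cleaves binding proteins, fell by 3.49 (16.8 ± 4.9 and 194 ± 5.6 TPM). Astrocyte and Bergmann glia markers, 6 genes, summed to 348 to 522 TPM in tumors and 2560 to 3600 TPM in controls, and their part in the Htra1 level was not tested.

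Of the genes that act on Igf2 RNA, Plagl1, an imprinted zinc finger activator, rose by 1.19 (25.1 ± 5.2 and 10.4 ± 1.4 TPM). Igf2bp3, which binds Igf2 mRNA, fell by 1.14 (3.93 ± 0.74 and 9.87 ± 1.4 TPM), and Zbed6, a repressor of Igf2, fell by 1.12 (13.2 ± 3.8 and 29.7 ± 6.4 TPM). Of the 4 genes of this list that were tested, 1 was called higher and 2 lower, beside 14.4% and 21.5% of all genes. Igf2 itself was not called, and a link between these genes and its level was not tested.

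The adaptor and feedback list had 5 of 12 tested genes higher (41.7%) and 2 lower (16.7%), beside 14.4% and 21.5% of all genes. Irs1, the substrate that links IGF1R to PI3K, was at 40.4, 91.3 and 90.9 TPM in tumors, 9.23 to 29.5 TPM in adjacent cerebellum and 9.08 to 11.2 TPM in controls, and it rose by 2.65 (adjusted p = 2.4e-06). Its relative Irs2 differed by -0.94 (adjusted p = 0.00481), short of the fold threshold. The cytokine and growth factor inhibitors Socs3 (28.0 ± 0.46 and 1.38 ± 0.61 TPM) and Socs2 (74.3 ± 12 and 13.4 ± 3.0 TPM) rose by 3.64 and 2.40. The adaptors Shc1 and Gab1 rose by 1.41 and 1.37, whereas Grb14, which inhibits the insulin receptor, and Grb2, which couples receptors to RAS, fell by 2.04 and 1.09.

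Of 22 PI3K, AKT and mTOR genes, 2 were higher (9.09%) and 4 lower (18.2%), beside 14.4% and 21.5% of all genes. Eif4ebp1, the mTOR target that holds back cap-dependent translation, rose by 3.38 (64.6 ± 24 and 5.21 ± 2.1 TPM), and Akt1 rose by 1.07 (288 ± 33 and 136 ± 8.5 TPM). The PI3K subunits Pik3r1 and Pik3cb fell by 1.67 and 1.34, the AKT-restrained factor Foxo3 by 1.34, and Rictor, a subunit of mTOR complex 2, by 1.16. The median over the list was -0.485, beside -0.11 over all genes. Against adjacent cerebellum, 1 of 46 pathway genes tested was higher (Socs2, by 1.40) and 8 were lower (17.4%), beside 4.76% and 18.0% of all genes. By limma, 0 of 47 pathway genes were called between adjacent cerebellum and controls, beside 0.224% higher and 0.0124% lower of all genes. At an unadjusted p under 0.05, 15 of them had higher and 6 lower values (31.9% and 12.8%), beside 22.1% and 12.4% of all genes. The 15 include Igfbp1, which passed the filter through the adjacent samples where it was high (1.04, 1.35 and 1.39 TPM). Among controls it reached 1 TPM only in GB517 (1.33 TPM), so its direction was largely set by the filter. Between the control genotypes 0 of 46 were called, beside 0.0128% and 0.0449% of all genes, and 0 had higher and 6 lower values (13.0%) at an unadjusted p under 0.05, beside 4.78% and 15.3%. The 6 include Ins2, which passed the filter only through Brca2-WT;Trp53-mut cerebellum, where it was high, so its direction was set by the filter.

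**Figure D5:**
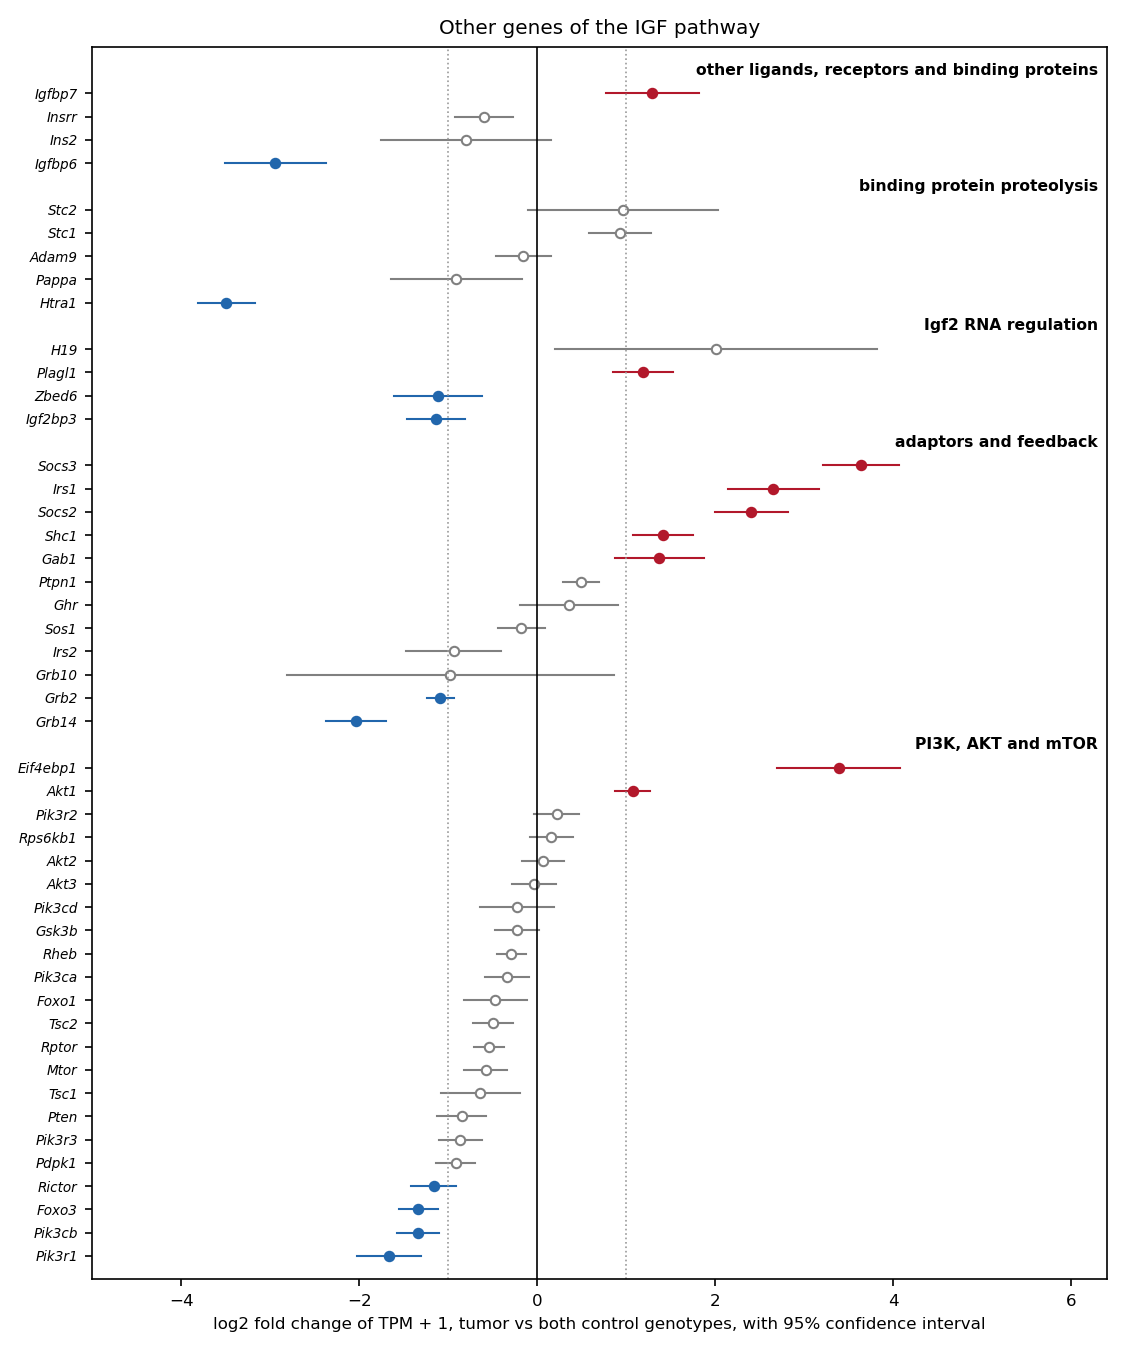
Log2 fold change of TPM + 1 in tumors against both control genotypes, with 95% confidence intervals, for the 47 other pathway genes tested, grouped by role. Red points were called higher (9 genes), blue points were called lower (10 genes) and open points were not called.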

How the data were processed

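RNA sequencing of 12 mouse samples was re-examined (3 tumors, 3 adjacent cerebella and 6 control cerebella). The authors quantified transcripts with Salmon 0.8.1 (mm10, per the labels) and summed them to genes. The deposited values are TPM for 24091 genes, summing to 999793 to 999876 per sample. Read counts were not used here, so depth is unknown, no interval for counting error is given, and precision is the spread between samples. TPM were taken as log2(TPM + 1). A gene entered a comparison if 3 or more of its samples reached 1 TPM. Tests used limma 3.58.1 with an intensity trend (R 4.3.3), and p-values were adjusted by Benjamini-Hochberg over every gene that entered. The thresholds (adjusted p under 0.01, absolute log2 fold change of at least 1) follow the study's methods. Python 3.11.15 with numpy, pandas and matplotlib did the rest.

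The members and the pathway and marker lists were chosen with earlier results of these data known. The text names all members, the pathway genes called in tumors against both control genotypes (up to 5 in each direction per list), marker genes that move with a member, and the 3 genes most like Igf1, Igf2, Igfbp2 and Igfbpl1. Insrr, Ins2, Irs2, Grb10, H19, Trp53 and the genes of the last section were named after their values were seen. Tumor and adjacent samples carry the same mouse numbers, by which they were paired. Deviations from the group means correlated within mice at r = 0.249, 0.176 and 0.152 over 15845 genes, and at -0.163 to 0.018 between mice. With 3 samples a group, such deviations are tied to each other, so these values do not establish the pairing. The mouse was not in the fit that gave the tumor against adjacent values, except where a value is said to have the mouse as a block. Alternatives were other pseudocounts (0.1 and 0.01), filters (none or 5 TPM), scalings, thresholds, fits and control groups, the mouse as a block, and each sample left out in turn. Positions and sequences are from RefSeq (GRCm38.p6), and 0 sample columns were left unused.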

Additional observations from a re-analysis of the deposited data

Results flagged for a closer look

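In the 6 control cerebella, the highest or lowest sample was tested for its gap to the next one, divided by the range of all 6, with Dixon's critical value of 0.625, for 29 genes (the 10 members and the 19 pathway genes called). Chance marks about 1 group in 20, and 5 genes were marked. Igfbp3 in GB512 was at 22.0 TPM, the next control being at 15.2 TPM (gap 0.746 of the range), and Igfbp4 in GB512 was at 27.9 TPM with the next at 15.3 TPM (0.806). Socs3 was also highest in GB512, at 2.54 TPM against 1.44 TPM (0.646). In that library Mki67 was at 5.63 TPM and Top2a at 8.42 TPM, against at most 0.343 and 0.686 TPM in the other controls, and the part of cycling cells in these values was not tested. Foxo3 was highest in GB517, at 107.5 TPM against 89.5 TPM (0.724). Gab1 was lowest in GB508, at 16.1 TPM against 19.9 TPM (0.625 after rounding).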

How the results depend on the processing

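Each called member kept its direction under every alternative run, and the calls of Igfbp3 and Igfbp4 in tumors against either set of controls held in all of them. The Igfbp3 call held only just with Brca2-mut;Trp53-WT as the only control, at a log2 fold change of 1.0004 beside the threshold of 1. Counts here include Igfbpl1, which entered comparisons with controls through the high group alone. Members called lower in tumors against Brca2-WT;Trp53-mut went from 1 to 0 with quantile normalization and to 2 at an adjusted p under 0.05 with no fold minimum, with 1 to 2 when a sample was left out. Against both genotypes the 1 became 0 with median-of-ratios scaling, quantile normalization or Brca2-mut;Trp53-WT as the only control and 3 at the looser threshold, where members called higher also went from 3 to 4 with Igf1r, with 0 to 2 lower when a sample was left out. Against adjacent cerebellum the 1 became 0 with either scaling, and 0 to 1 when a sample was left out. In adjacent cerebellum, members called higher went from 1 (Igfbpl1) to 0 with no filter, eBayes without a trend or either control genotype alone and to 3 at the looser threshold, with 0 to 1 when a sample was left out, and members called lower went from 0 to 1 at that threshold, as they did between the control genotypes. Leaving out tumor GB344 added Igf2 to the lower calls, at -2.28 against Brca2-WT;Trp53-mut and -1.92 against both. The cause of these shifts was not tested.

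Values that changed sign were all uncalled, and ranges in this paragraph are those with 1 sample left out. For Igfbp2 in tumors against both genotypes it was -0.57 against Brca2-WT;Trp53-mut alone (range -0.27 to 0.45). For Igf2 the range there was -1.92 to 0.076, and against adjacent cerebellum it was 0.034 and 0.066 with median-of-ratios and quantile scaling (range -1.28 to 0.72). Igf1 there was 0.19 with quantile normalization. In adjacent cerebellum against controls, Igf2r was 0.12 against Brca2-mut;Trp53-WT alone (range -0.058 to 0.026), Igfbp2 was 0.019 against that control, and Igfbp5 was -0.0048 with median-of-ratios scaling (range -0.061 to 0.13). Between control genotypes, Igf1 was 0.037 and 0.097 with median-of-ratios and quantile scaling (range -0.16 to 0.039), Igf1r was 0.013 with quantile normalization, and the range of Igfbp5 was -0.089 to 0.077.

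With the mouse as a block, 0 members were called higher and 1 lower in tumors against adjacent cerebellum, the only comparison it was run for, and no member's call changed there. Over all genes, 701 were called higher and 2841 lower, against 755 and 2852 without the block. Median-of-ratios and quantile scaling moved the median over all genes (log2) from -0.16 to -0.01 and 0.04 in tumors against Brca2-WT;Trp53-mut, from -0.11 to -0.01 and 0.04 against both genotypes and from -0.14 to 0.03 and 0.13 against adjacent cerebellum. Of all genes called, the share called higher was 20.9% against adjacent cerebellum and became 34.4% and 42.2%. In adjacent cerebellum against controls it went from 94.7% (36 higher and 2 lower) to 87.9% (51 and 7) and 69.5% (41 and 18). Between control genotypes it went from 22.2% (2 and 7) to 50% (2 and 2) and 66.7% (2 and 1). Shares in both comparisons rest on few genes.

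The precision of every value is set by 3 samples a group, and the read depth is unknown.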

Other observations

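A list of 18 imprinted genes was drawn up after the values of tumor GB344 had been seen, so it carries no test. Of the 16 that reached 1 TPM in 3 or more samples, 6 were highest of all 12 samples in tumor GB344 (37.5%), beside 15.1% of all 16498 such genes. They were Igf2, H19, Grb10, Cdkn1c, Peg10 and Mest. Igf2, H19 and Grb10, described above as standing out in this tumor, are counted in the 37.5%, so it is not like for like with the 15.1%. Cdkn1c, a CDK inhibitor, was at 27.7 TPM there and at 14.1 and 15.4 TPM in the other tumors. Peg10 was at 35.6 TPM, with 11.5 and 12.6 TPM in the others, and Mest at 58.3 TPM, with 30.3 and 33.0 TPM. Dlk1, at 2.12 TPM in that tumor and 0.423 and 0.527 TPM in the others, reached 4.45 TPM elsewhere in the series. Phlda2, under 1 TPM in every sample, was also highest there, at 0.371 TPM against at most 0.157 TPM. Igf2r, Ndn and Snrpn were the highest of the 3 tumors in GB344, at 1.13 to 1.39 times the next, but not of all samples. Others were not highest in that tumor. Meg3 was at 60.2 TPM in tumor GB344 and 90.0 and 105.4 TPM in the other tumors, Plagl1 at 26.2 TPM with 19.4 and 29.7 TPM, and Nnat at 781.0 TPM with 956.7 and 1247 TPM. Stc2, a secreted inhibitor of the protease PAPP-A, was at 13.2 TPM in tumor GB344 and at 0.976 to 5.57 TPM in the other 11 samples.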
